A study of Sus scrofa with 15 samples.

Results

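Smooth muscle cells contract with a particular set of actins and actin-binding proteins, and 5 genes of that set were followed while pig granulosa cells lost their differentiated state in culture. They are the smooth muscle actins ACTA2 (alpha) and ACTG2 (gamma) and the actin-binding proteins TAGLN (transgelin), CNN1 (calponin) and SMTN (smoothelin). A gene was taken through probe sets whose only symbol in the array annotation was its own, and the probe set with the highest mean over all arrays stood for it. For ACTG2 that choice follows the later days, since on day 0 its other probe set was the brighter (7.62 against 6.64), and the results of both are given. All 5 genes were found among 6765 named genes, by 8 of the 23999 probe sets tested. Granulosa cells are the hormone-producing cells that surround the egg in the ovarian follicle. Total RNA of these cells was hybridised to Affymetrix porcine arrays at day 0 (cells of porcine ovarian follicles), days 1, 2 and 4 (dedifferentiating cells) and day 7 (dedifferentiated cells grown to semiconfluence, which the labels call DFOG). There were 3 arrays for each day and 15 together, a number that sets the precision. The labels name no strain, age, added agent or culture medium. They call the replicates biological without saying whether separate animals or cultures gave them, so the p-values rest on the spread among these 15 arrays, whatever its source.

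In smooth muscle, ACTA2 and ACTG2 form the thin filaments on which myosin pulls. TAGLN cross-links actin filaments, CNN1 binds them and holds back the myosin ATPase, and SMTN associates with the filaments of contractile cells. The genes of this set are known targets of serum response factor and its myocardin-related cofactors, which respond to the state of actin in the cell. ACTA2 and TAGLN also appear early in myofibroblasts and in many cells plated on a stiff surface, whereas CNN1, SMTN and ACTG2 are used as markers of more mature smooth muscle.

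The identity of the cells was checked on 10 granulosa markers, all of which were measured. On day 0 none of the 10 lay at or below the lower quartile of the arrays (4.59 to 4.68 on the log2 scale). That count was also 0 on days 1 and 2 and was 1 on days 4 and 7, so it does not set day 0 apart. The summed linear intensity of the 10 markers lay between 43644 and 61456 for day 0, between 10718 and 19535 for day 1, between 5922 and 6782 for day 2, between 1735 and 1936 for day 4 and between 1204 and 1275 for day 7, a lower range at each later time. On day 7, 6 of the 10 were called lower and 0 higher, against 7.28% of all probe sets called lower. On day 2, 6 were called lower and 1 higher against day 0 (6.09% and 7.68% of all probe sets). From day 1 to day 2, 3 were called lower and 2 higher (1% and 2.04%). A probe set is called here at a Benjamini-Hochberg adjusted p under 0.05 and a log2 change of at least 1, a 2-fold difference. Arrays of the same day correlated at 0.963 to 0.996 over all probe sets, and no pair was identical. The replicate 1 array of every day stood apart on the third principal component, at 29.4 to 48.1 against -41.4 to -5.78 for the other 10 arrays. Day 4 replicate 2 had an actin control 3′ minus 5′ difference (signal near the transcript's 3′ end less that near its 5′ end) of 2.12. On that array GAPDH gave 2.14 and dap, an added control transcript, gave 3.52, where dap was 1.01 to 1.77 on the other arrays. The deviation was thus not limited to the cells' own transcripts. The actin difference was 0.97 to 1.68 on day 0 and 0.02 to 1.01 on the remaining arrays of culture. It was thus mostly lower in culture, where the 5 genes rose. From day 2 to day 4 it changed little in replicate 1 (0.02 and 0.07) and replicate 3 (0.68 and 0.63). Its part in the rises was not tested. Results are therefore also given from replicates 2 and 3 alone, and without day 4 replicate 2 where that array changes them.

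ACTA2, the alpha smooth muscle actin, went up at every sampled interval until day 4. Its log2 intensity was 7.18, 7.50 and 8.36 on day 0, 10.20, 8.92 and 8.98 on day 1, 12.28, 12.42 and 12.49 on day 2, 14.09, 13.82 and 14.00 on day 4 and 14.22, 14.26 and 14.21 on day 7 (replicates 1, 2 and 3). No day overlapped with the day before it. The change from day 0 was 1.69 ± 0.32 on day 1 (SE from limma; adjusted p = 0.00132), 4.72 on day 2, 6.29 on day 4 and 6.55 on day 7, a 93.8-fold rise (adjusted p = 5.57e-09). The step from day 1 to day 2 was the largest of the 4, at 3.03 ± 0.32 (adjusted p = 1.57e-04), and that from day 2 to day 4 was 1.57 ± 0.32 (adjusted p = 0.0122). From day 4 to day 7 the difference was 0.26 ± 0.32 (adjusted p = 1.00), not past the test. By day 7 only 8 to 10 of all tested probe sets were brighter than ACTA2 on an array, against 5949 to 9410 on day 0, so the top of the scale was near. The rise on day 1 depended most on replicate 1, whose day 1 value was 10.20, and was 1.02 from replicates 2 and 3 alone.

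ACTG2, the gamma smooth muscle actin of gut and other visceral muscle, rose later and with more spread. It measured 6.24, 6.89 and 6.79 on day 0, 8.09, 7.87 and 7.89 on day 1, 9.44, 8.05 and 7.99 on day 2, 11.90, 10.07 and 10.51 on day 4 and 12.92, 12.33 and 11.84 on day 7. Days 1, 2, 4 and 7 all lay above day 0, while days 1 and 2 overlapped and so did days 4 and 7. Replicate 1 was the highest of the 3 on each day from day 1 and the lowest on day 0. The change from day 0 was 1.31 ± 0.46 on day 1 (limma adjusted p = 0.0511), which missed the threshold, and 1.85 ± 0.46 on day 2 (adjusted p = 0.00770). The day 1 change was called when replicate 1 of day 2, 4 or 7 or replicate 2 of day 4 was left out (adjusted p = 0.0165 to 0.0487), and from replicates 2 and 3 alone, where it was 1.04 (adjusted p = 0.00155). The day 2 change was 1.18 from those replicates. On day 4 it was 4.19 and on day 7 it reached 5.72 ± 0.46 (52.7-fold, adjusted p = 4.26e-07). The only called step was that from day 2 to day 4, at 2.33 ± 0.46 (adjusted p = 0.00956), and it was no longer called without day 2 replicate 2 (2.12) or day 2 replicate 3 (2.08). From replicates 2 and 3 alone the step from day 4 to day 7 was 1.79 and was called (adjusted p = 0.00879), whereas over all arrays it was 1.53 (adjusted p = 0.564). The smaller set keeps day 4 replicate 2. With only that array left out, the step was 1.16 and was not called.

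TAGLN, which bundles actin filaments and is among the earliest smooth muscle genes to be expressed in development, had the largest measured rise of the 5 on every day, though on day 7 its interval overlapped that of CNN1, whose rise is a lower bound. It measured 5.39, 6.01 and 6.46 on day 0, 10.29, 10.60 and 10.04 on day 1, 11.70, 11.61 and 11.42 on day 2, 13.79, 13.37 and 13.28 on day 4 and 13.61, 13.67 and 13.67 on day 7. Each day lay above the one before until day 4, and days 4 and 7 overlapped. The change on day 1 was already 4.35 ± 0.23 (20.4-fold, adjusted p = 5.09e-08), which ranked 19 among the 6765 named genes. It was 5.63 on day 2, 7.52 on day 4 and 7.69 on day 7 (207-fold, adjusted p = 1.01e-10). The later steps were 1.27 ± 0.23 from day 1 to day 2 and 1.90 ± 0.23 from day 2 to day 4 (adjusted p = 0.00599 and 3.64e-04), and 0.17 ± 0.23 from day 4 to day 7 (adjusted p = 1.00).

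CNN1, the calponin of smooth muscle, started lowest and made most of its rise after day 2. It measured 4.64, 3.98 and 4.41 on day 0, 5.45, 5.27 and 5.70 on day 1, 6.60, 6.33 and 6.92 on day 2, 10.19, 9.32 and 10.04 on day 4 and 11.41, 10.91 and 11.08 on day 7. All 5 days were separate from each other. The day 0 values lay in or below the range of the lower quartiles of those arrays, so its changes from day 0 are lower bounds. They were 1.13 ± 0.25 on day 1 (adjusted p = 0.00377), 2.27 on day 2, 5.50 on day 4 and 6.79 on day 7 (111-fold, adjusted p = 5.17e-10). The step from day 2 to day 4, which does not start at the floor, was 3.23 ± 0.25 (9.41-fold, adjusted p = 2.43e-05). Its smaller steps were less secure. The day 1 change fell to 0.95 without day 0 replicate 2, under the minimum of 1, and the step from day 1 to day 2 (1.14, adjusted p = 0.0147) was not called without day 1 replicate 2 (1.04) or day 2 replicate 3 (0.99). From day 4 to day 7 CNN1 changed by 1.28 ± 0.25 (adjusted p = 0.144), which was called with replicate number as a block (adjusted p = 0.00858). Without day 4 replicate 2 that step was 1.02 and was not called (limma adjusted p = 0.618).

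SMTN, smoothelin, a cytoskeletal protein of contractile smooth muscle, had the smallest rise of the 5. It measured 8.12, 8.26 and 7.89 on day 0, 7.73, 8.47 and 8.99 on day 1, 8.48, 9.38 and 9.55 on day 2, 10.27, 10.58 and 10.78 on day 4 and 11.36, 11.32 and 11.41 on day 7. Day 1 overlapped with both day 0 and day 2, and from day 2 each day was separate from the next. Replicate 1 was the lowest of the 3 on days 1, 2 and 4, the reverse of ACTG2. The change from day 0 was 0.31 ± 0.30 on day 1 (adjusted p = 0.550), 1.05 ± 0.30 on day 2 (adjusted p = 0.0197), 2.46 on day 4 and 3.28 on day 7 (9.69-fold, adjusted p = 1.75e-06). From replicates 2 and 3 alone the day 1 change was 0.65 (limma adjusted p = 0.0232), still under the minimum of 1. The day 2 change from those replicates was 1.39 (limma adjusted p = 3.01e-04). The step from day 1 to day 2 (0.74, adjusted p = 0.207) was called only when replicate 1 of day 2 was left out (1.07, adjusted p = 0.0377), among the arrays left out in turn. The day 2 call against day 0 rested on a change just past the minimum. It was 0.95 without day 0 replicate 3, 0.93 without day 2 replicate 2 and 0.84 without day 2 replicate 3, none of which was called. The step from day 2 to day 4 was 1.41 ± 0.30 (adjusted p = 0.0176), and the call was lost when replicate 1 of day 2 (adjusted p = 0.0534), replicate 2 of day 4 (0.0530) or replicate 3 of day 4 (0.0732) was left out.

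**Figure D1:**
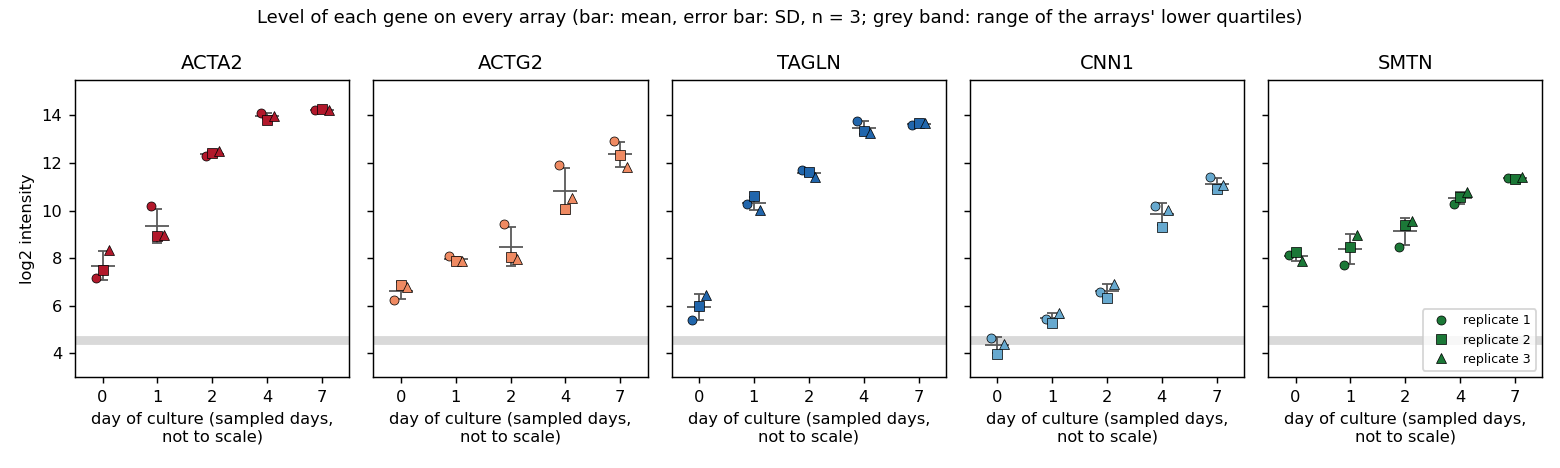
Log2 intensity (vertical axis) of the 5 genes on every array, by sampled day of culture (horizontal axis, evenly spaced); points are arrays, with bars for the mean and SD of 3 arrays, and the grey band is the range of the arrays' lower quartiles. All 5 genes were higher on every day 7 array than on every day 0 array, and CNN1 started in the grey band.

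The moderated F test over the time course gave adjusted p-values of 4.16e-10 (TAGLN) to 4.37e-06 (SMTN), where 23.6% of all probe sets were called at a range of day means of at least 1. On day 1, 3 of the 5 genes were called higher (TAGLN, ACTA2 and CNN1), against 6.47% of all probe sets. All 5 were higher on day 2, against 7.68% of all probe sets, all 5 on day 4, against 9.29%, and all 5 on day 7, against 9.36%. None was called lower on day 1 (6.03% of all probe sets), day 2 (6.09%), day 4 (6.59%) or day 7 (7.28%), or from day 1 to day 2 (1%), day 2 to day 4 (0.538%) or day 4 to day 7 (0.0125%). All arrays of the later day lay above all arrays of day 0 for 4 of 5 genes on day 1 (20.7% of all probe sets), and for 5 of 5 on day 2 (21.1%), day 4 (21.1%) and day 7 (23%). The same held between neighbouring days for ACTA2, TAGLN and CNN1 from day 1 to day 2 (11.6% of all probe sets) and for all 5 from day 2 to day 4 (9%). Between neighbouring days, 3 of 5 were called higher from day 1 to day 2 (TAGLN, ACTA2 and CNN1; 2.04% of all probe sets), 5 of 5 from day 2 to day 4 (2% of all probe sets) and 0 of 5 from day 4 to day 7 (0.0458% of all probe sets). The last interval called few probe sets of any kind, 11 higher and 3 lower. In that interval CNN1, SMTN and ACTA2 were nevertheless higher on each day 7 array than on each day 4 array, which 4.76% of all probe sets were. Among the 6765 named genes the day 7 rise ranked 4 for TAGLN, 9 for CNN1, 12 for ACTA2, 24 for ACTG2 and 144 for SMTN.

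The order of the rises from day 0 was compared by their 95% confidence intervals. On day 1 TAGLN led at 4.35, and its interval of 3.85 to 4.86 lay above those of ACTA2, ACTG2, CNN1 and SMTN, which followed in that order with each interval overlapping the next. From replicates 2 and 3 alone TAGLN still led on day 1 at 4.09, but the order below it changed. It was then CNN1 (1.29), ACTG2 (1.04), ACTA2 (1.02) and SMTN (0.65). On day 2 TAGLN and ACTA2 overlapped, and ACTA2 (4.04 to 5.40) lay above CNN1 (1.74 to 2.80), which overlapped with ACTG2 (0.87 to 2.84). ACTG2 overlapped with SMTN (0.40 to 1.70), whereas CNN1 and SMTN did not overlap. By day 4 the order was TAGLN, ACTA2, CNN1, ACTG2 and SMTN, with a gap after TAGLN and a gap before SMTN. By day 7 CNN1 stood above ACTA2 in the order, and the intervals of TAGLN, CNN1, ACTA2 and ACTG2 each overlapped the next. SMTN (2.62 to 3.93) remained below ACTG2 (4.74 to 6.70).

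**Figure D2:**
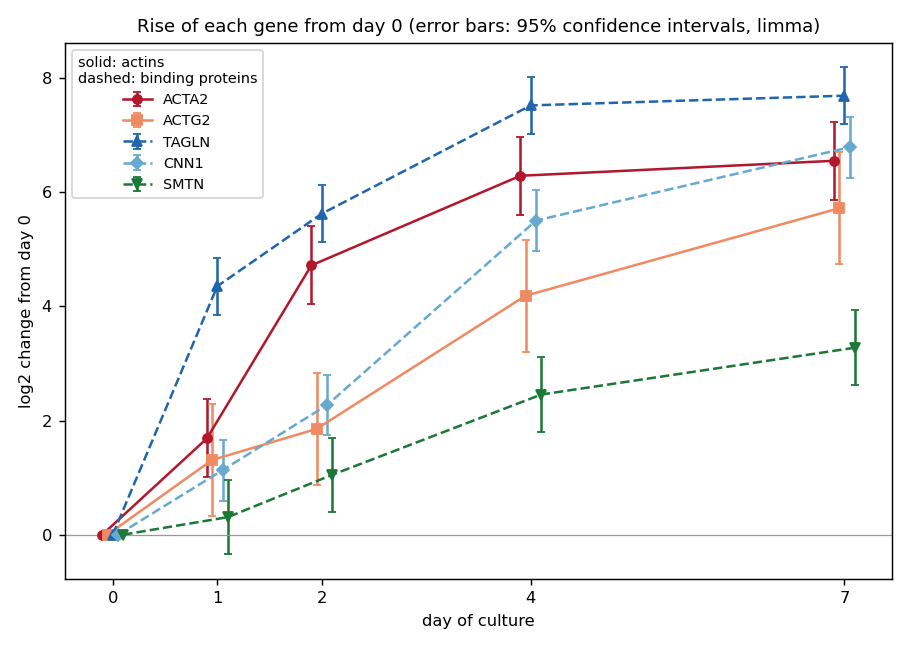
Log2 change from day 0 (vertical axis) against day of culture (horizontal axis, to scale) for the 5 genes, with actins as solid and binding proteins as dashed lines and 95% confidence intervals from limma. TAGLN and ACTA2 separated from the other 3 by day 2, and the intervals of CNN1 and ACTA2 overlapped on day 7.

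The timing was also expressed as the share of each gene's own day 7 rise, on the log2 scale, that had been reached by an earlier day. TAGLN had reached 56.6% ± 3.63 of its rise on day 1 (SD, n = 3), ACTA2 25.7% ± 11.0, ACTG2 22.9% ± 2.08, CNN1 16.6% ± 3.18 and SMTN 9.35% ± 19.4. With only replicates 2 and 3, TAGLN still had the highest day 1 share. The others were then 16.2% for ACTA2, 18.9% for CNN1, 19.8% for ACTG2 and 19.9% for SMTN. The day 1 order below TAGLN thus depended on replicate 1. On day 2 ACTA2 stood at 72.0% ± 1.67 and TAGLN at 73.1% ± 1.86, whereas CNN1 stood at 33.4% ± 4.32, ACTG2 at 32.4% ± 14.3 and SMTN at 32.0% ± 17.5. The lowest day 2 array of the first pair (70.2%) lay above the highest of the other 3 genes (48.9%, ACTG2 replicate 1). From replicates 2 and 3 alone the day 2 shares were 71.8% for ACTA2 and 71.1% for TAGLN, and 35.7% for CNN1, 22.5% for ACTG2 and 42.2% for SMTN. On day 4 ACTA2 and TAGLN had reached 96.0% and 97.8%, and CNN1, SMTN and ACTG2 81.1%, 75.0% and 73.2%. For scale, the 861 named genes called higher on day 7 had a median share of 51.8% on day 1, 72.5% on day 2 and 94.7% on day 4. ACTA2 and TAGLN thus lay close to that median on days 2 and 4, and CNN1, ACTG2 and SMTN lay below its lower quartile on day 2 (49.6%) and on day 4 (82.3%). The share of CNN1 is uncertain because its day 0 level is at the floor, and those of ACTA2 and TAGLN because their day 7 levels are near the top of the scale, with 8 to 10 and 62 to 70 brighter probe sets. A true day 0 level under the floor would make the CNN1 share larger. True day 7 levels above those measured would make the day 1 and day 2 shares of ACTA2 and TAGLN smaller. Either would narrow the day 2 gap between CNN1 and that pair.

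**Figure D3:**
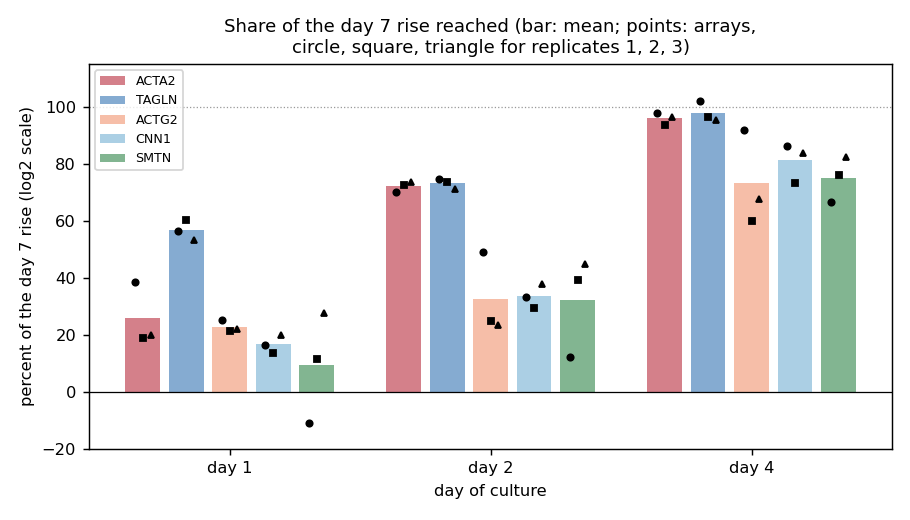
Percent of the day 7 rise (vertical axis, log2 scale) reached on days 1, 2 and 4 (horizontal axis) by each gene; bars are means and points the 3 arrays of a day. On day 2 ACTA2 and TAGLN stood at 72.0% and 73.1% and the other 3 genes at 32.0% to 33.4%.

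The actins as a pair and the binding proteins as a trio both rose, and which rose more on days 2, 4 and 7 depended on the arrays and probe sets used. The mean change of ACTA2 and ACTG2 from day 0 was 1.50 ± 0.42 on day 1, 3.29 ± 0.36 on day 2, 5.24 ± 0.54 on day 4 and 6.14 ± 0.27 on day 7 (SD, n = 3). That of TAGLN, CNN1 and SMTN was 1.93 ± 0.22, 2.98 ± 0.19, 5.16 ± 0.18 and 5.92 ± 0.08 on the same days. Taken on each array, the actins less the binding proteins differed from day 0 by -0.43 ± 0.63 on day 1, 0.30 ± 0.52 on day 2, 0.08 ± 0.41 on day 4 and 0.22 ± 0.25 on day 7. The range of each day overlapped that of the day 0 arrays (-0.37 to 0.29). From replicates 2 and 3 alone the sign of the last 3 values turned, to -0.18, -0.34 and -0.07. With all probe sets of a gene averaged, the difference was -0.48 ± 0.07 on day 4 and -0.52 ± 0.14 on day 7. The floor under CNN1 on day 0 makes the rise of the binding proteins a lower bound. Single genes differed by more, within and across the classes. The change of ACTA2 exceeded that of ACTG2 by 2.87 ± 0.92 on day 2 and by 0.83 ± 0.54 on day 7. The change of TAGLN exceeded that of CNN1 by at most 3.22 ± 0.49 on day 1 and 3.35 ± 0.41 on day 2, upper limits because of the same floor. On day 7 the measured difference was 0.90 ± 0.29, which is no firm limit, since TAGLN was then near the top of the scale. Across the classes, ACTG2 less TAGLN was -3.05 ± 0.32 on day 1, -3.77 ± 0.71 on day 2, -3.34 ± 0.71 on day 4 and -1.97 ± 0.57 on day 7, and ACTA2 less SMTN was 1.38 ± 1.32, 3.67 ± 0.47, 3.83 ± 0.34 and 3.28 ± 0.07 on the same days. ACTG2 less CNN1 was 0.18 ± 0.24 on day 1, -0.42 ± 0.90 on day 2, -1.32 ± 0.65 on day 4 and -1.07 ± 0.41 on day 7, also upper limits.

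For ACTG2 and SMTN the result depended on the probe set. The second ACTG2 probe set averaged 7.62 ± 0.18 on day 0, 6.54 ± 0.77 on day 1, 6.61 ± 0.79 on day 2, 7.79 ± 0.13 on day 4 and 8.25 ± 0.34 on day 7 (SD, n = 3). It was thus lower on each day 1 array than on each day 0 array, with a change of -1.08 ± 0.38 (limma adjusted p = 0.0541), and its day 7 change of 0.63 ± 0.38 (adjusted p = 0.240) did not pass the test. The other SMTN probe sets were dim, with means of 5.36 to 6.75 over the days. The brighter of them on day 7 changed by 1.39 ± 0.46 (adjusted p = 0.0351) and was called, with a replicate 1 value of 7.91 against 6.25 and 6.09 in replicates 2 and 3. The remaining SMTN probe set changed by 0.31 ± 0.18 (adjusted p = 0.223). With all probe sets of a gene averaged, the day 7 change was 3.18 for ACTG2 and 1.66 for SMTN, both still called, and the day 2 changes of 0.42 and 0.44 were not. Which transcripts these probe sets read was not analysed here. The actins are close paralogs, so reading of another actin by the ACTA2 or ACTG2 probe sets was not tested.

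**Figure D4:**
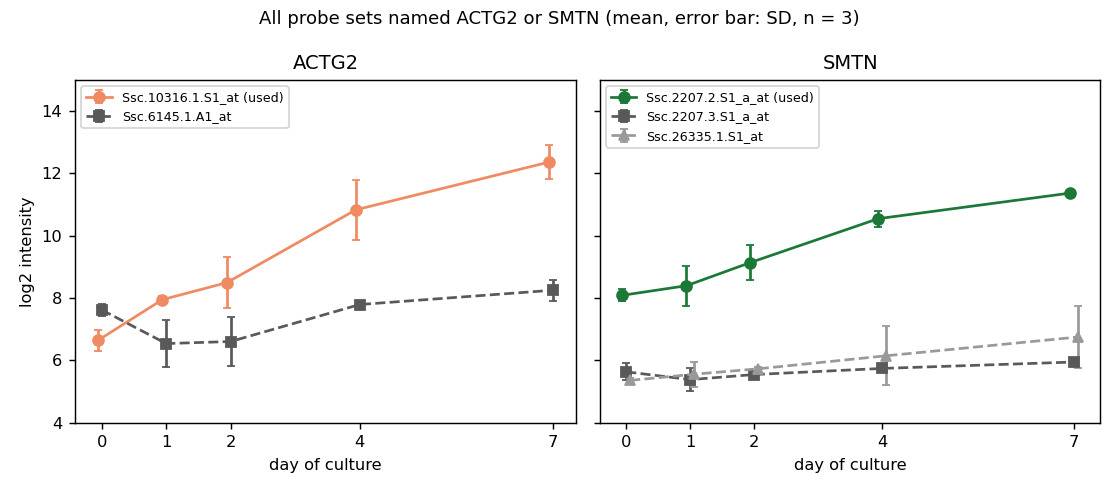
Mean log2 intensity (vertical axis, error bars SD of 3 arrays) by day of culture (horizontal axis, to scale) for the 2 probe sets of ACTG2 and the 3 of SMTN; solid lines are the probe sets used. The dashed probe sets moved by at most 1.39 between day 7 and day 0, against 5.72 and 3.28 for those used.

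The rest of the smooth muscle contractile apparatus was read from a list of 20 genes, of which 15 were measured. On day 7, 13 of the 15 were called higher and 0 lower, with a median change of 2.62, where 9.36% of all probe sets were called higher and the median of all was -0.05. On day 1 the count was 6 of 15 with a median of 0.95, against 6.47% of all probe sets called higher. TPM2, a tropomyosin that lies along the actin filament, rose by 5.70 ± 0.30 on day 7, and ACTN1, an actin cross-linker of adhesion sites, by 5.63 ± 0.14. CALD1, the actin-binding caldesmon, rose by 3.38 ± 0.18 and MYL9, the regulatory light chain of smooth muscle myosin, by 3.33 ± 0.15. PDLIM7, a LIM-domain protein of stress fibres, rose by 4.40 ± 0.22. DES, the intermediate filament of muscle, rose by 2.22 ± 0.45. The 2 not called were MYLK, the kinase that switches on smooth muscle myosin (0.59 ± 0.24, adjusted p = 0.0795), and PDLIM3 (0.08 ± 0.15, adjusted p = 0.735). MYH11, the smooth muscle myosin heavy chain, and LMOD1 are not analysed here, as no probe set carried their names.

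The apparatus genes also spread over early and late courses. By day 2 ACTN1 had reached 84.4% of its day 7 rise, TPM4 78.7%, FLNA (filamin) 71.5% and TPM2 69.2%. MYL9 had reached 27.0%, TPM1 37.6% and SYNM, an intermediate filament partner of desmin, 37.7%, which is in the range of CNN1, ACTG2 and SMTN. DES stood at -0.75% on day 2 and 39.6% on day 4; its step from day 4 to day 7 was 1.34 ± 0.45 and was not called (adjusted p = 0.716).

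**Figure D5:**
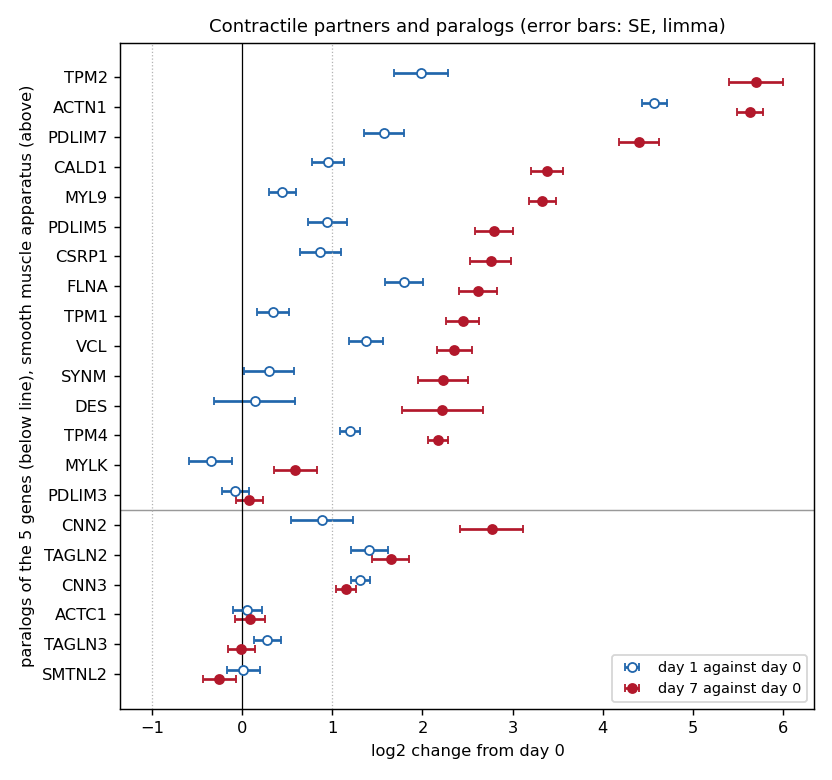
Log2 change from day 0 (horizontal axis, error bars SE from limma) on day 1 (open points) and day 7 (filled points) for the 15 measured genes of the smooth muscle apparatus (above the line) and the 6 measured paralogs (below it). Dotted lines mark the minimum change of 1. On day 7, 13 of the 15 apparatus genes and 3 of the 6 paralogs were called higher, against 9.36% of all probe sets.

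Close relatives of the 5 genes changed less. Of 8 listed paralogs, 6 were measured and 3 were called higher on day 7, with 0 lower (median 0.62), against 9.36% and 7.28% of all probe sets. CNN2 and CNN3, the calponins of non-muscle cells, rose by 2.77 ± 0.34 and 1.15 ± 0.11, and TAGLN2, the transgelin found in many tissues, rose by 1.65 ± 0.21. These are smaller than the 6.79 of CNN1 and the 7.69 of TAGLN, and CNN3 and TAGLN2 stood at 11.51 and 11.01 on day 0. ACTC1, the cardiac alpha actin, stayed near the floor at 3.84 on day 7 and 3.75 on day 0, TAGLN3 was at 5.39 and 5.40, and the SMTN relative SMTNL2 at 5.31 and 5.56; none was called. The actins of all cells differed by 0.93 ± 0.17 (ACTB) and 0.44 ± 0.14 (ACTG1) on day 7, both under the minimum change. They stood at 14.11 and 14.29 on day 7 and 13.17 and 13.85 on day 0, near the highest signals of the arrays (14.58 to 14.95), which limits what change could be seen. Of the 7 measured non-muscle actin and myosin genes 3 were called higher on day 7 (median 1.25), against 9.36% of all probe sets. MYH9, the non-muscle myosin heavy chain, rose by 2.67 ± 0.11, CFL1 (cofilin) by 1.51 ± 0.23 and MYL6, a myosin light chain, by 1.25 ± 0.11. MYH10, another non-muscle myosin heavy chain, differed by 1.33 ± 0.62 (adjusted p = 0.122). Its day 0 mean of 4.42 lay below the lower quartiles of those arrays.

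Sarcomeres are the contractile units of skeletal and heart muscle. Of 17 measured genes of sarcomeres, 2 were called higher on day 7 and 0 lower (median -0.03), a share near the 9.36% of all probe sets called higher: TNNT1, a skeletal troponin, by 2.73 ± 0.27 and MYL1, a skeletal myosin light chain, by 1.05 ± 0.27. MYL1 remained dim, at 5.43 on day 7 and 4.38 on day 0. TTN, the giant spring protein titin, differed by 0.62 ± 0.34 (limma adjusted p = 0.199) and was near the floor, at 4.52 on day 7 and 3.90 on day 0.

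Among serum response factor cofactors and related regulators, 10 of 19 were measured, and 4 were called higher and 2 lower on day 7 (median 0.19), against 9.36% and 7.28% of all probe sets. The count of lower genes was 1 when replicate 2 or 3 of day 0 or replicate 1 or 3 of day 7 was left out. FHL2, a LIM-domain protein that binds serum response factor, rose by at least 7.97 ± 0.20, with 6.04 of it on day 1, and PRRX1, a mesenchymal homeobox factor, rose by at least 3.54 ± 0.51. Both are lower bounds, since the day 0 means of 4.09 and 4.31 lay below the lower quartiles of those arrays. TEAD4 rose by 1.59 ± 0.18 and FHL1 by 1.16 ± 0.27. The 2 called lower were KLF4 (-1.55 ± 0.48), known to hold back smooth muscle genes, and GATA6 (-1.51 ± 0.19). MYOCD, myocardin, the coactivator known as a master regulator of smooth muscle genes, was at 5.57 on day 7 and 6.35 on day 0, a difference of -0.78 ± 0.18 (adjusted p = 0.00478) under the minimum change. SRF itself and the myocardin-related factors MRTFA and MRTFB had no named probe set.

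Of the 11 measured receptors and channels of smooth muscle, 4 were called higher and 2 lower on day 7 (median 0.44), against 9.36% and 7.28% of all probe sets. ITGA5, the fibronectin receptor subunit, rose by 4.84 ± 0.26, AGTR1, the angiotensin receptor, by 3.96 ± 0.28, and ITGA8, an integrin of smooth muscle, by 3.64 ± 0.33. ATP2A2, the calcium pump of the sarcoplasmic reticulum, rose by 1.05 ± 0.14. The endothelin receptors EDNRA and EDNRB changed by -2.18 ± 0.32 and -1.45 ± 0.16.

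In a bulk sample a change in the number of cells of a type and a change in RNA per cell cannot be told apart, so markers of other cell types are given beside these rises. Of 8 pericyte markers 5 were measured and 3 were called higher on day 7, against 9.36% of all probe sets. They were PDGFRB by 4.62 ± 0.36, RGS5 by 3.66 ± 0.71 and ANPEP by 1.62 ± 0.45. The summed linear intensity of the 5 measured lay between 193 and 413 for day 0, between 8312 and 8977 for day 1, between 12629 and 15979 for day 2, between 3738 and 7589 for day 4 and between 2016 and 3973 for day 7. On day 2 the sum was mostly RGS5, at 13.65. By day 7 RGS5 was at 10.43, close to PDGFRB. The later steps of RGS5 were not called (limma adjusted p = 0.312 from day 2 to day 4 and 1.00 from day 4 to day 7). PDGFRB was at 10.26 on day 7 and 10.81 on day 2, and ANPEP at 6.73 on day 7 and 5.27 on day 2. MCAM and KCNJ8, which also mark pericytes, were at 4.35 and 4.76 on day 7 and 3.95 and 4.84 on day 0. Of 5 theca markers 4 were measured, and their sum lay between 942 and 1225 for day 0, between 1265 and 1368 for day 1, between 1533 and 1863 for day 2, between 921 and 1200 for day 4 and between 787 and 815 for day 7. The theca enzyme CYP17A1 was at 5.29 on day 7 and 4.99 on day 0, and INSL3 fell by 2.36 ± 0.23. The 7 endothelial markers summed to 315 to 370 (day 7) and 459 to 628 (day 0), with CDH5, KDR and TEK at or below the lower quartile on both days. PECAM1 was called higher on day 7 (1.49 ± 0.21) and TIE1 lower (-2.40 ± 0.22). The 6 measured leukocyte markers of 9 summed to 190 to 220 (day 7) and 135 to 164 (day 0), with PTPRC at 3.75 on day 7 and 3.77 on day 0. The 2 measured epithelial markers of 4 had a sum between 53.1 and 78.6 for day 0, between 513 and 642 for day 2 and between 32.1 and 49.3 for day 7. The part of other cells in the rises was not tested.

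The genes whose course was most like that of a member were found by Pearson correlation over the 15 arrays among all named genes, which share the days and the normalization, so the values are descriptions. The 5 nearest of ACTA2 were NUAK1 (0.990), GSN, the actin-severing gelsolin (0.985), UXS1 (0.985), TPM2 (0.984) and GPX4 (0.981). Nearest to TAGLN were MRLC2, a myosin regulatory light chain (0.995), GLIPR2 (0.991), TPM4 (0.989), TMEM26 (0.987) and CAPN2, a calpain protease (0.987). ACTG2 and CNN1 shared 3 of their 5 nearest genes, TPM1 (0.970 and 0.983), GYG1, the glycogen primer (0.964 and 0.988), and XIRP1, an actin-binding protein of striated muscle (0.962 and 0.992). CACNA2D1, a calcium channel subunit (0.986), and PABPC4 (0.969) completed the list of ACTG2, and MYL9 (0.988) and WLS, a carrier of Wnt proteins (0.988), that of CNN1. Nearest to SMTN were SELENOM (0.994), AEBP1 (0.973), KIFAP3 (0.973), the collagen gene COL5A1 (0.968) and TMEM54 (0.966). Of the 22 distinct genes named this way, 4 were on the apparatus list (TPM1, TPM2, TPM4 and MYL9). Among the members themselves the correlation was highest for ACTG2 with CNN1 (0.967), CNN1 with SMTN (0.960) and ACTA2 with TAGLN (0.946), and lowest for TAGLN with SMTN (0.820).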

How the data were processed

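The deposited values are log2 intensities per probe set, made by the authors with RMA, a multi-array background correction, normalization and summary, as the submitters' processing notes name it; its version and settings are not given in the sources used here. They were used as deposited, 1 column for each of 15 arrays. Array medians were 6.40 to 6.55. Of 24123 probe sets, 124 controls served only as quality measures and 23999 were tested. Symbols came from the array annotation: 10069 tested probe sets had 1 symbol, 198 several and 13732 none. No genome build was used and no sequence is printed.

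A limma 3.58.1 model (lmFit and eBayes, R 4.3.3) held 1 mean for each of the 5 days over the 15 arrays, and was checked on simulated data. A probe set was called at a Benjamini-Hochberg adjusted p under 0.05, over all probe sets of a comparison, and a log2 change of at least 1. Lists are described by counts and medians, 1 probe set per gene, the brightest; 1 list is not reported here. Named genes were the 5 members, the apparatus and paralog lists, up to 3 genes of each other list by size of change on day 7, cell type markers and the 5 nearest genes of each member. ACTB, ACTG1, MYL6, FHL1, KLF4, GATA6, ATP2A2, EDNRA and EDNRB lie outside that rule and were chosen after their values were seen. Members and lists were chosen with earlier results of these data known.

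Same-numbered arrays deviated together (correlation of deviations from the day means 0.115 to 0.727 in 6 of 7 comparisons), but for day 1 against day 0 the lowest was 0.0609; the labels give no pairing. The fit with replicate number as a block is given beside a result of those 6 comparisons where it changed the call. The alternatives were another quantile normalization, a median shift, a filter on dim probe sets, trend and robust eBayes, the block, no minimum change, replicates 2 and 3 only, the mean of a gene's probe sets, and each array left out.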

Additional observations from a re-analysis of the deposited data

How the results depend on the processing

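Of 915 changes and moderated F values of the 5 genes recomputed under the alternatives, 887 kept their side of the threshold, 15 lost their call and 13 gained one. Of the changes 0 reversed, while an F value has no direction and cannot reverse. The cause was not tested for those that moved, except where fewer arrays or probe sets entered by construction. The day 1 rise of ACTG2, not called as reported, was called after a second quantile normalization (1.28), after arrays were shifted to the same median (1.30), without the dimmest 40% of probe sets, with trend and robust settings or with the replicate block (1.31 each), and from replicates 2 and 3 only (1.04). SMTN on day 2 was 0.95 and not called after the second quantile normalization. The replicate block also called CNN1 from day 4 to day 7 (1.28), hence 1 gene, with 24 probe sets higher and 17 lower there and 203 lower from day 2 to day 4; it changed no other call of a member. From replicates 2 and 3 only, ACTG2 was called from day 4 to day 7 (1.79), hence 1 gene, with 29 probe sets higher and 26 lower, and from day 1 to day 2 822 were higher and 499 lower. The actins less the binding proteins were then -0.34 on day 4 and -0.067 on day 7, the ACTG2 share on day 1 was 19.8% and the TAGLN share on day 2 71.1%.

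With every probe set of a gene averaged, ACTG2 (0.42) and SMTN (0.44) were not called on day 2, leaving 3 genes, nor was SMTN from day 2 to day 4 (0.67). The actins less the binding proteins became -0.48 on day 4 and -0.52 on day 7, and the ACTG2 shares 3.61% on day 1 and 13.2% on day 2. Without a minimum change, probe sets higher and lower numbered 3274 and 2746 on day 1, 3500 and 2748 on day 2, 4004 and 3356 on day 4, 3932 and 3582 on day 7, 868 and 593 from day 1 to day 2 and 726 and 276 from day 2 to day 4. Without the dimmest 40%, 2 were higher from day 4 to day 7, and 1 sarcomere gene was higher on day 7. List counts without a minimum change were, on day 1, apparatus 10 higher, non-muscle actin and myosin 5 higher and 1 lower, receptors 2 higher and sarcomere 1 lower, and on day 7 non-muscle 5 higher and 1 lower, cofactors 4 lower and sarcomere 1 lower. The second quantile normalization gave 1 non-muscle gene higher on day 1. Replicates 2 and 3 gave 2 cofactors lower on day 1 and 5 non-muscle genes higher on day 7. The mean of probe sets gave 1 non-muscle gene higher and 1 receptor lower on day 1, and 1 receptor lower on day 7.

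With each array left out in turn, the ranges were 0.95 to 1.28 for CNN1 on day 1, 1.11 to 1.43 for ACTG2 on day 1, 0.84 to 1.38 for SMTN on day 2, 0.99 to 1.28 for CNN1 and 0.41 to 1.07 for SMTN from day 1 to day 2, 1.08 to 1.61 for SMTN and 1.80 to 2.81 for ACTG2 from day 2 to day 4, and 20.1% to 24.5% for the ACTG2 share on day 1. Counts ranged over 4 to 12 higher and 0 to 6 lower probe sets from day 4 to day 7, 120 to 403 lower from day 1 to day 2, 83 to 138 lower from day 2 to day 4, 1 to 2 non-muscle genes higher and 1 to 2 cofactors lower on day 1, and 1 to 2 sarcomere genes higher and 1 to 2 cofactors lower on day 7. The floor limits CNN1 on day 0; whether ACTA2 and TAGLN were saturated on days 4 and 7 was not tested.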
